A study of Arabidopsis thaliana with 6 samples.

Results

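The messages that ribosomes occupied in mitochondria of the rps10 mutant of Arabidopsis thaliana were read from ribosome footprints set against total mitochondrial RNA of the same phenotype. All 4 mutant libraries of the 6 in the series were used, and all 24 mitochondrial genes with a deposited level were members. The plants had the genotype Rps10 +/- in ecotype Col-0, and P2 and P3 are phenotypes of that mutant and not separate mutants. Youngest leaves were taken at 9 to 10 weeks, and mutant seedlings had been selected with 50 mg kanamycin per litre before transfer to soil. There was 1 footprint library and 1 RNA library for each phenotype, and each pooled 15 mitochondrial preparations. Values within a phenotype therefore have no replicate and no p-value, and P2 and P3 are used as 2 readings of the same ranking. Wild-type libraries were not used here, and the level of the nuclear RPS10 gene was not analysed here.

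The mitochondrial genome of plants encodes a small set of proteins, most of them subunits of the respiratory complexes and the ATP synthase. It also carries some proteins of the mitochondrial ribosome, factors that attach heme to cytochrome c, a maturase for intron splicing and a protein of a twin-arginine transport pathway. S10, the product of the nuclear gene RPS10, belongs to the small subunit of the mitochondrial ribosome. A ribosome shields a short stretch of its message from nuclease, and footprints on a gene relative to its RNA describe how densely that message is occupied.

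Gene levels were in TPM, a measure corrected for gene length whose values sum to 1000000 over the 24 genes in each library. The ratio of footprint TPM to RNA TPM is therefore 1 for a message occupied at the average of the 24, and it says nothing of the absolute number of ribosomes. A gene was counted as densely or sparsely occupied when its ratio was at least 1.5-fold above or below 1. The files list no reads for single genes, so no counting interval is given for a ratio.

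One feature of the footprint values bears on comparisons of P2 with P3. Footprint TPM in P3 over that in P2 was the same number, 1.57411, for ccmB, ccmFN2 and tatC, and matR came within 0.5% of it. Relative to that number, the P3 to P2 quotient of each of the 24 genes equalled, within a relative tolerance of 1e-10, a quotient of whole numbers no larger than 2473, for instance 6 to 7 for rps4 and 808 to 809 for matR. TPM made from whole reads have this property, and a shared quotient means a common proportion of P3 to P2 reads, whose size the files do not give. In the other 5 pairings of the mutant libraries no 2 genes had identical quotients, within a relative tolerance of 1e-09. The 0.5% tolerance that took in matR was not applied to those pairings. Quotients as near as that were found elsewhere. P3 over P2 footprint TPM was 0.839 for atp1 and 0.838 for nad4L, and P3 over P2 RNA TPM was 0.997 for cox3 and rps7. The frame shares of ccmB, ccmFN2, tatC and matR differed between P2 and P3. The origin of the match was not tested. Comparisons of P2 with P3 are therefore also given without these 4 genes.

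The classes of reads show what the libraries held. Reads on mitochondrial coding sequences (CDS) numbered 80146 of 15131283 footprint reads in P2 and 48653 of 11956216 in P3. That was 0.530% (95% Wilson interval 0.526 to 0.533) and 0.407% (0.403 to 0.411), against 37.3% and 37.4% of the RNA reads. Mitochondrial tRNA and rRNA took most of the footprint reads, 88.7% in P2 and 86.6% in P3, compared with 17.1% and 14.8% of the RNA reads. Once mitochondrial tRNA and rRNA were set aside, CDS held 17.3% of the footprint reads left on the mitochondrial genome in P2 and 14.9% in P3, and 47.1% and 46.2% of such RNA reads. The CDS part of mitochondrial reads outside tRNA and rRNA was thus 2.71-fold smaller in footprints than in RNA in P2 and 3.11-fold smaller in P3. These intervals cover counting error only, since amplified fragments are not independent molecules.

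Reads from other compartments depended on the class taken as the whole. Of all reads, the nuclear genome held 1.90% of the footprints in P2 and 1.77% in P3 against 0.725% and 0.428% of the RNA, and the plastid genome held less of the footprints, 0.279% and 0.327%, than of the RNA, 1.22% and 1.21%. With tRNA and rRNA set aside, both genomes together made up 41.7% and 43.3% of the footprint reads and 2.39% and 1.98% of the RNA reads. The part of mitochondrial reads outside tRNA and rRNA that matched with 1 to 5 mismatches set the P3 RNA library apart. It was 6.27% there, and 17.2% in P2 RNA, 17.5% in P2 footprints and 20.0% in P3 footprints. Reads with several positions on the genome were alike in the 4 libraries, at 11.5% to 13.1%. The part of these differences in the ratios below was not tested.

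**Figure D1:**
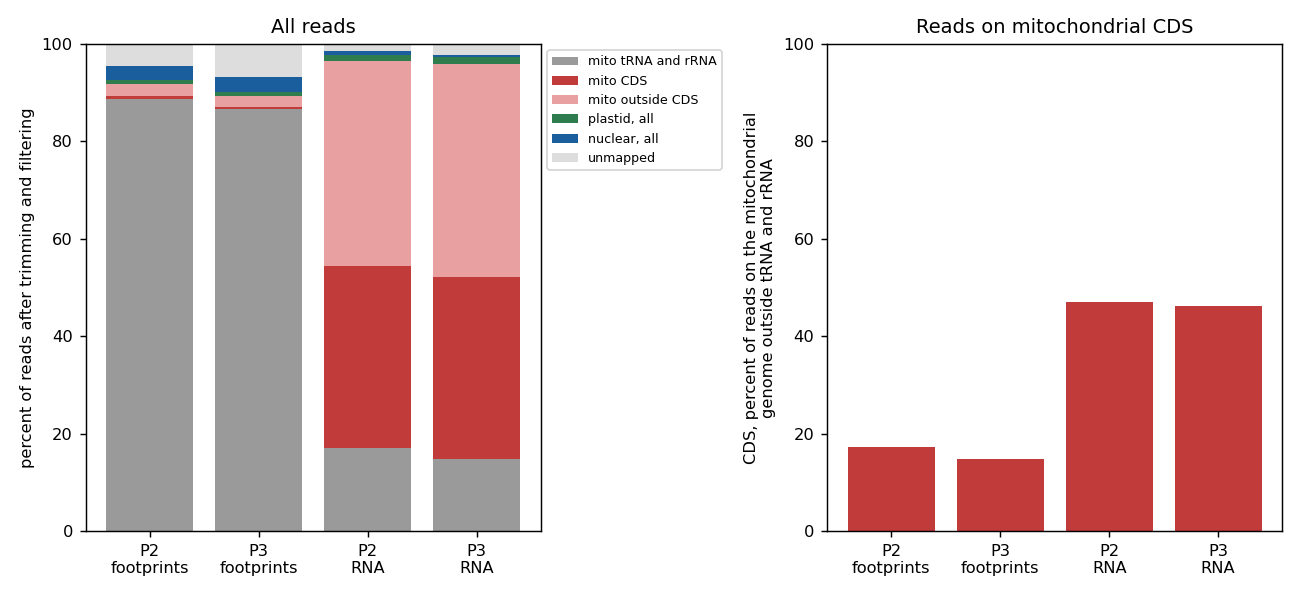
Classes of reads in the 4 mutant libraries, as percent of reads after trimming and filtering (left, stacked bars), and the CDS part of mitochondrial genome reads, tRNA and rRNA set aside, in percent (right). Footprint libraries were mostly tRNA and rRNA, and CDS held 17.3% and 14.9% of their other mitochondrial reads against 47.1% and 46.2% in RNA.

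Footprints departed from RNA abundance at both ends of the ranking. The most abundant RNA, atp9, was among the 3 most sparsely occupied messages in both phenotypes, and the message with most footprints, cox3, stood in place 8 by RNA. In P2 6 of 24 genes (25.0%) were densely and 5 (20.8%) sparsely occupied, and in P3 8 (33.3%) and 6 (25.0%). Dense occupancy in both phenotypes was shared by 6 genes (25.0%), which were cox3, atp6.2, rps7, rps12, rpl16 and rps4. Sparse occupancy in both was shared by 4 genes (16.7%), which were nad4L, ccmB, atp9 and nad9. Without the 4 genes of matching footprint quotient, 7 genes were dense in P3, the same 6 were dense in both and 3 were sparse in both, with tatC and ccmB gone because they were left out. Both sets were chosen by their ratios, so the direction of their summed shares was fixed and only the size is described. The 6 genes held 16.4% of the RNA TPM and 40.1% of the footprint TPM in P2, and 15.9% and 47.1% in P3. The 4 sparse genes held 35.9% of the RNA and 16.3% of the footprints in P2, and 38.2% and 12.7% in P3. Without ccmB, and still as shares of all 24 genes, these were 35.0% and 16.0% in P2, and 37.3% and 12.2% in P3. No gene was dense in one phenotype and sparse in the other.

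**Figure D2:**
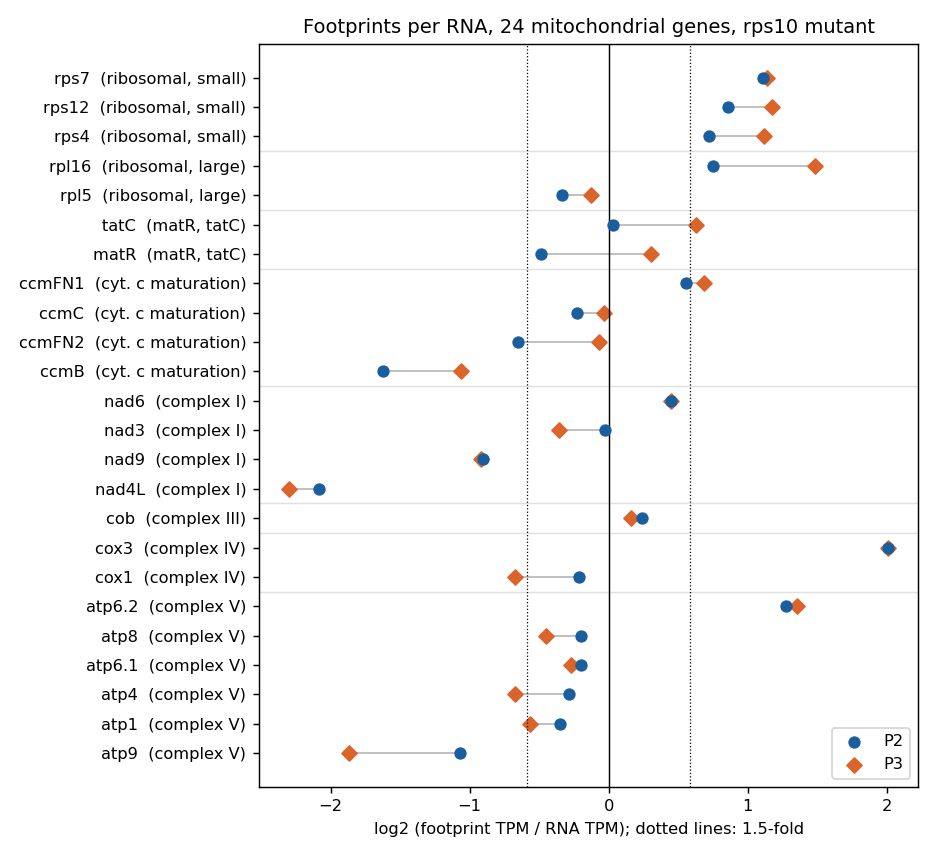
Log2 of footprint TPM over RNA TPM for each of the 24 genes in P2 (circles) and P3 (diamonds), grouped by the function of the gene product, with dotted lines at 1.5-fold. Ratios ran from nad4L at -2.09 and -2.30 to cox3 at 2.01 in both.

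The genes for ribosomal proteins were occupied more densely than the average message in 4 of 5 cases. Their median log2 ratio was 0.75 in P2 and 1.13 in P3, beside -0.20 and -0.05 over all 24 genes. They held 14.1% of the RNA and 21.2% of the footprints in P2, and 13.4% and 28.2% in P3. With rpl16 taken out of the library totals as well, the other 4 held 9.55% of the RNA and 13.9% of the footprints in P2, and 8.88% and 16.7% in P3. The list had 7 genes, and rps3 and rpl2 had no deposited TPM. In each phenotype 4 of the 5 measured members were counted as dense, beside 25.0% of all genes in P2 and 33.3% in P3, and none was sparse, beside 20.8% and 25.0%. With footprints weighted by their frame 0 share, 3 of the 5 were dense in each. At 2-fold, 1 of the 5 was dense in P2 and 4 in P3.

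Within the small subunit, rps7 had the lowest RNA level of the ribosomal genes and yet a high ratio. Its RNA was 4720 TPM in P2 and 4707 in P3, and its footprints were 10182 and 10337 TPM, giving ratios of 2.16 and 2.20. For rps12, RNA was 34086 and 29027 TPM and footprints were 61658 and 65618 TPM, with ratios of 1.81 and 2.26. For rps4, RNA was 16965 and 17388 TPM and footprints were 27925 and 37677 TPM, with ratios of 1.65 and 2.17. The ratios of the 3 small-subunit genes were thus close to each other, from 1.65 to 2.16 in P2 and from 2.17 to 2.26 in P3, although their RNA levels lay up to 7.22-fold and 6.17-fold apart.

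The large-subunit genes differed from each other. For rpl16, RNA was 50509 TPM in P2 and 49485 in P3, and footprints were 85059 and 138128 TPM, so the ratio was 1.68 in P2 and 2.79 in P3. For rpl5, RNA was 34864 and 33270 TPM and footprints were 27662 and 30425 TPM, with ratios of 0.79 and 0.91. The high rpl16 value carries a limit. Its span overlaps that of rps3 according to the TAIR10.1 gene table, frame 0 held only 23.9% of its footprints in P2 and 23.1% in P3, and frame 1 held 61.4% and 65.3%. When footprints were weighted by their frame 0 share, the log2 ratio of rpl16 went from 0.75 to -0.18 in P2 and from 1.48 to 0.52 in P3, below 1.5-fold in both, while rps4, rps7 and rps12 stayed dense.

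Complex IV, the cytochrome c oxidase, held the most densely occupied message and one near or below the average. RNA levels of its 2 measured genes were similar, with cox1 at 59684 TPM in P2 and 59836 in P3 and cox3 at 47173 and 47035. Footprints were 51493 and 37562 TPM on cox1 and 189461 and 189713 TPM on cox3. The cox3 ratio was 4.02 in P2 and 4.03 in P3, the highest of the 24 genes in each, and the cox1 ratio was 0.86 and 0.63. Footprints on cox3 were thus 3.68-fold those on cox1 in P2 and 5.05-fold in P3, with RNA 1.27-fold higher for cox1 in both. Frame 0 held 55.7% and 57.2% of the cox3 footprints, among the highest shares of any gene. In the TAIR10.1 gene table cox3 overlaps a pseudogene of sdh4, and the assignment of reads there is not described. The third gene of the list, cox2, had no deposited TPM.

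Complex V, the ATP synthase, took the largest part of the RNA of any complex and a smaller part of the footprints. Its 6 genes held 44.3% of the RNA and 31.0% of the footprints in P2, and 45.1% and 24.2% in P3. With atp9 and cox3 taken out of the library totals as well, the other 5 genes held 31.4% of the RNA and 29.5% of the footprints in P2. In P3 they held 30.2% and 23.8%. Those totals lack cox3, which held 18.9% of the footprint TPM and 4.72% of the RNA TPM in P2. The median log2 ratio of complex V was -0.24 and -0.51, and 5 of 6 members lay below 1 in each phenotype. Over all 24 genes 14 lay below 1 in P2 and 13 in P3, and the medians were -0.20 and -0.05, so that the P2 median of complex V was close to that of all genes. The gene for the membrane ring subunit, atp9, had 210135 TPM of RNA in P2 and 233015 in P3 but 99971 and 63849 TPM of footprints. Its RNA exceeded its footprints 2.10-fold and 3.65-fold, and frame 0 held 40.7% and 35.1% of those footprints, with frame 1 slightly larger (36.2%) in P3. For atp1, which encodes the alpha subunit of the catalytic head, RNA was 97630 and 94861 TPM, footprints were 76482 and 64181 TPM, and the ratios were 0.78 and 0.68.

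The other complex V messages, atp6.2 apart, were near the average in P2 and lower in P3. For atp4, a subunit of the peripheral stalk, the ratio was 0.82 in P2 and 0.63 in P3, past 1.5-fold in P3 alone. Its P3 log2 ratio of -0.68 became -0.53 without rpl16 and -0.44 without cox3, inside 1.5-fold in both. Leaving out either gene rescaled the levels of all the others. For atp8, a small membrane subunit, it was 0.87 and 0.73. For atp6.1, one of the copies of the proton channel subunit, it was 0.87 and 0.83. Frame 0 held 55.2% and 59.3% of the atp8 footprints, so a ratio below 1 went with a high frame 0 share there.

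The other copy, atp6.2, was the exception in complex V. It had 10892 and 11578 TPM of RNA against 61822 and 55462 for atp6.1, yet 26307 and 29667 TPM of footprints, for ratios of 2.42 and 2.56. The copies share much of their sequence, and the division of reads between them depends on the authors' counting. Summed, they had a ratio of 1.10 in P2 and 1.13 in P3, so no dense call was left for atp6.

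**Figure D3:**
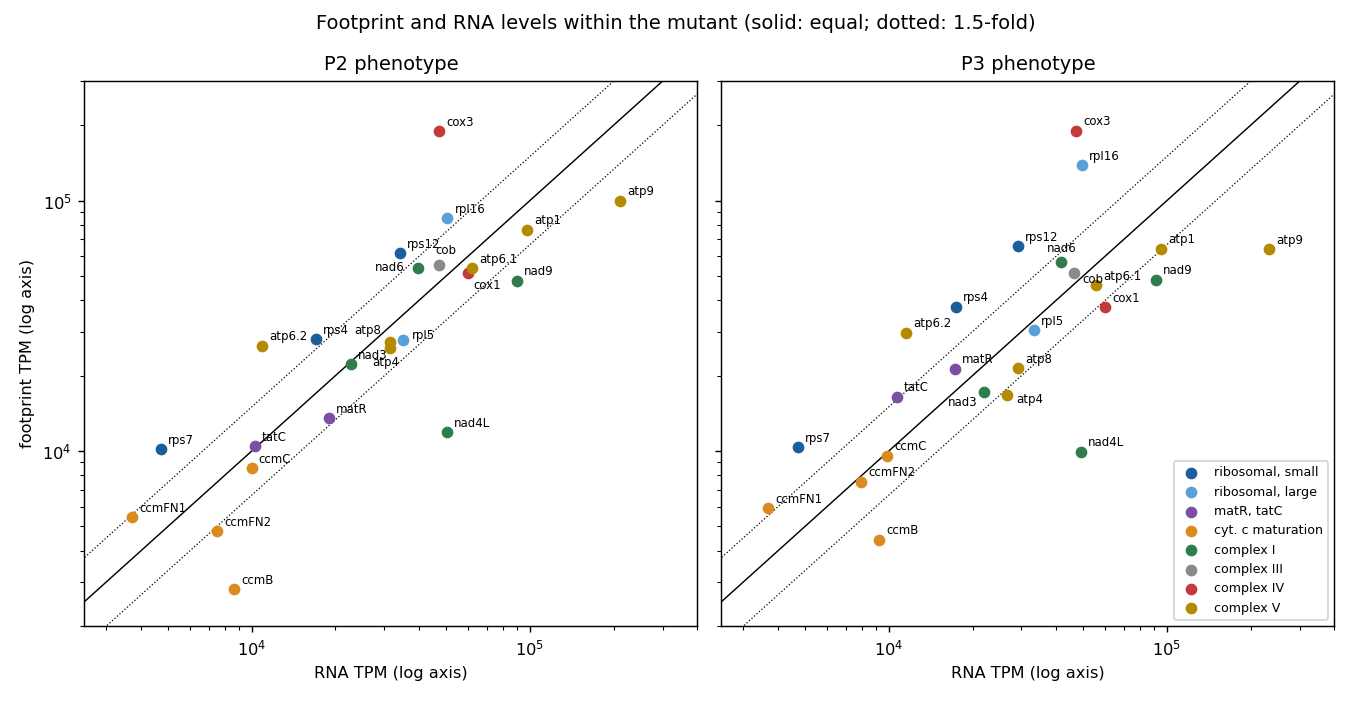
Footprint TPM against RNA TPM on log axes for the 24 genes in P2 and P3, coloured by gene list, with equality as a solid line and 1.5-fold as dotted lines. In both panels cox3 lies farthest above the solid line, with 189461 and 189713 TPM of footprints, and nad4L farthest below it.

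Complex I, the NADH dehydrogenase, had a median log2 ratio of -0.47 in P2 and -0.64 in P3, beside -0.20 and -0.05 over all genes. The P3 median passed 1.5-fold, but not against the median gene (-0.58), without rpl16 (-0.49) or without cox3 (-0.40). The P2 median was -0.27 against the median gene and -0.24 without cox3. Its 4 measured genes of a list of 9 held 20.3% of the RNA and 13.6% of the footprints in P2, and 20.4% and 13.2% in P3. For nad4L, a small membrane subunit, RNA was 50401 and 48949 TPM and footprints were 11865 and 9938 TPM. The ratios of 0.24 and 0.20 were the lowest of all genes, with 4.25-fold and 4.93-fold less footprint than RNA TPM. For nad9, a subunit of the peripheral arm, RNA was the third most abundant at 89836 and 91121 TPM, footprints were 47890 and 48293 TPM, and the ratio was 0.53 in both.

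The other complex I genes were not counted as sparse or dense. For nad3, a membrane subunit, footprints were 22248 TPM in P2 and 17203 in P3, for ratios of 0.98 and 0.78. For nad6, also a membrane subunit, it was 1.36 in both, with 53949 and 56646 TPM. Footprints within the complex spread 4.55-fold in P2 and 5.70-fold in P3 from nad4L to nad6, in an order other than that of RNA, where nad9 was highest and nad3 lowest. In complex III, cob, which encodes cytochrome b, had 55337 and 51607 TPM of footprints on 46944 and 46232 TPM of RNA, and ratios of 1.18 and 1.12.

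Over all 13 measured genes of the respiratory complexes and the ATP synthase, the list of oxidative phosphorylation (OXPHOS), the median log2 ratio was -0.20 in P2 and -0.45 in P3. In P2 2 of the 13 members were dense and 3 sparse, beside 25.0% of all genes dense and 20.8% sparse. The P2 sparse count was thus close to the share over all genes. In P3 2 members were dense and 5 sparse, beside 33.3% of all genes dense and 25.0% sparse. With TPM rescaled to the genes kept, the P3 count of sparse members was 3 without rpl16 and also 3 without cox3. There atp4 and cox1 were no longer past 1.5-fold. The list held 80.0% of the RNA and 74.2% of the footprints in P2, and 80.8% and 65.3% in P3. The P2 median was at the median of all genes. Rescaled without cox3, the P2 medians of the list and of all genes kept were both 0.03.

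Cytochrome c maturation genes ranged from sparse to near dense in P2 and from sparse to dense in P3. For ccmB, a membrane component of the transporter, RNA was 8669 and 9244 TPM and footprints were 2815 and 4431 TPM, the fewest of any gene in both phenotypes, and the ratios were 0.32 and 0.48. For ccmFN1, which encodes part of the heme lyase, RNA was the lowest of all genes at 3711 and 3686 TPM, footprints were 5454 and 5919 TPM, and the ratios of 1.47 and 1.61 lay on either side of 1.5. The other part of that lyase, ccmFN2, had ratios of 0.64 and 0.95, sparse in P2 alone, and ccmC had 0.85 and 0.97. The median of the 4 measured genes lay at -0.44 in P2 and -0.05 in P3. Without ccmB and ccmFN2, of the 4 genes of matching footprint quotient, the median of ccmC and ccmFN1 was 0.14 and 0.33, on the other side of 1. Frame 0 was not the largest frame of ccmFN2 in either phenotype, at 35.3% in P2 and 31.3% in P3.

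The maturase gene matR and the transport gene tatC had higher ratios in P3 than in P2. Both belong to the 4 genes of matching footprint quotient, tatC by an identical value and matR within 0.5%. For matR, RNA was 18957 TPM in P2 and 17237 in P3, footprints were 13538 and 21283 TPM, and the ratio went from 0.71 to 1.23. For tatC, RNA was 10246 and 10672 TPM, footprints were 10480 and 16497 TPM, and the ratio went from 1.02 to 1.55. The matR footprints in P3 were spread almost evenly over the frames, with 35.0% in frame 0, while 55.6% of the tatC footprints were in frame 0.

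**Figure D4:**
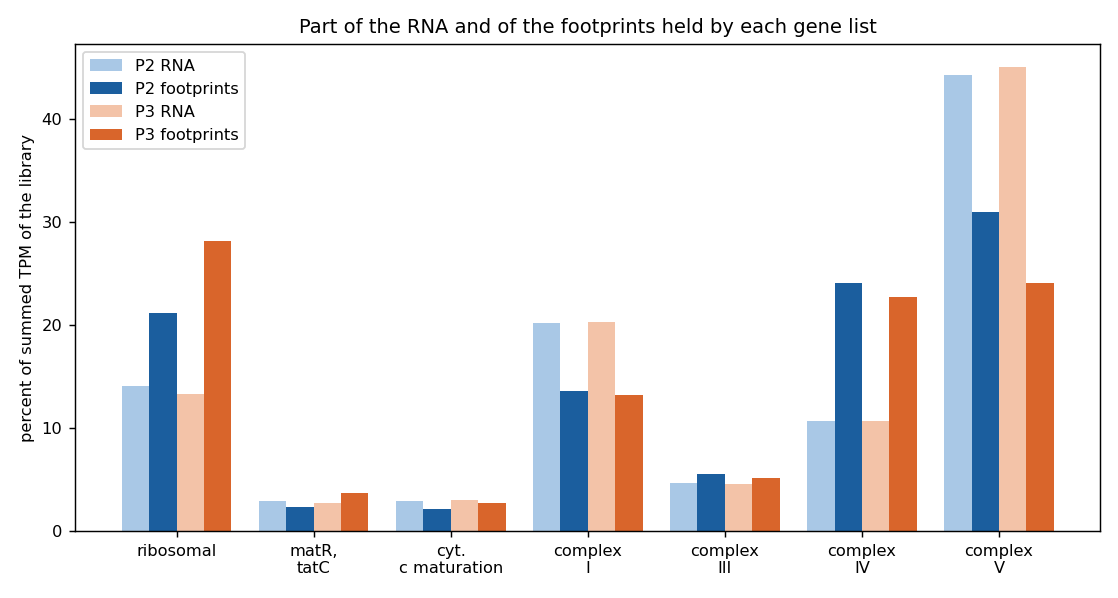
Percent of the summed TPM of each library held by each gene list, with RNA in light and footprints in dark bars, P2 in blue and P3 in orange. Ribosomal protein genes and complex IV held more of the footprints than of the RNA (21.2% against 14.1% and 24.1% against 10.7% in P2), and complexes I and V held less.

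Neighbouring genes allowed RNA and footprints to be set side by side for messages that may lie on one transcript. In the TAIR10.1 gene table nad3 lies next to rps12, and nad4L next to atp4. RNA was 34086 TPM for rps12 and 22714 for nad3 in P2, and 1.32-fold higher for rps12 in P3, whereas footprints were 2.77-fold and 3.81-fold higher for rps12. RNA of nad4L was 1.60-fold and 1.84-fold that of atp4, whereas footprints on atp4 were 2.18-fold and 1.68-fold those on nad4L. In the second pair the order was thus opposite for RNA and footprints in both phenotypes. For rpl5 and cob, which lie on either side of a pseudogene of rps14, cob had 1.35-fold and 1.39-fold more RNA and 2.00-fold and 1.70-fold more footprints.

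The ranking of the 24 genes was much alike in P2 and P3. Over genes, Spearman's rho of the ratios was 0.88 and Pearson's r of the log2 ratios was 0.93. Without the 4 genes of matching footprint quotient, rho was 0.93 and r was 0.97 over 20 genes. Those 4 had a P3 over P2 footprint quotient of 1.57, near the top of a range from 0.64 (atp9) to 1.62 (rpl16). Leaving them out favoured agreement, so the higher values followed in part from that choice. Such correlations describe genes that share a library and are not replicates. In all, 23 genes lay on the same side of 1, 10 above and 13 below, with matR the exception, so the 20 other than the matching 4 all kept their side. In the ranking, 7 genes held the same place, among them cox3, rps12, rps4, nad9 and nad4L. Including those 7, 15 genes lay within 2 places of each other.

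Most of what differed between the readings lay in the footprints. RNA TPM had r = 0.998 between P2 and P3 on the log2 scale, and the SD over genes of the log2 P3 over P2 level was 0.098 for RNA and 0.41 for footprints. Footprint TPM differed more than RNA TPM for 20 of 24 genes. Without the 4 genes of matching footprint quotient these SDs were 0.096 and 0.34, and the count was 16 of 20. Leaving out genes of high footprint quotient favoured the smaller footprint SD. The ratio was higher in P3 for rpl16 (1.66-fold). The values of matR (1.73-fold), tatC (1.51-fold), ccmFN2 (1.49-fold) and ccmB (1.48-fold) were also higher in P3, and these are the 4 genes of matching footprint quotient. The ratio was lower in P3 for atp9, where the P2 ratio was 1.74-fold the P3 ratio, and for cox1 (1.37-fold) and atp4 (1.31-fold). CDS reads numbered 80146 in P2 footprints and 48653 in P3 footprints, far fewer than the 3126478 and 2122781 in RNA. The part of counting error in the wider footprint spread was not tested, nor were the differences between P2 and P3. Footprint and RNA levels were less alike within a phenotype, with rho = 0.82 in P2 and 0.75 in P3 over the 24 genes.

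**Figure D5:**
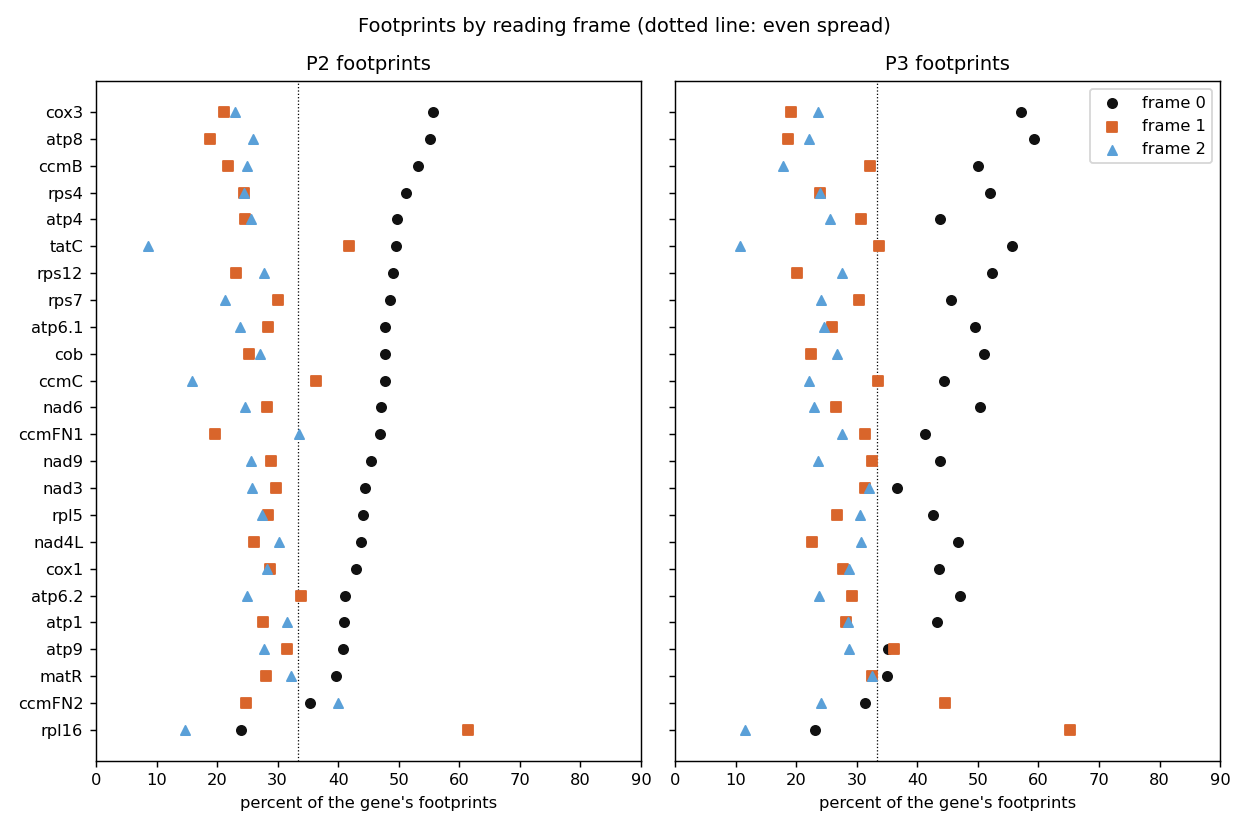
Percent of each gene's footprints in frames 0, 1 and 2 in P2 and P3, with genes ordered by the P2 frame 0 share and an even spread (33.3%) dotted. Frame 0 was the largest for 22 genes in P2 and 21 in P3, and rpl16 is the gene with a large frame 1 share in both.

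Reading frames were not used in the ratio. A translating ribosome moves codon by codon, so its footprints favour a frame. The median frame 0 share over the 24 genes was 47.0% in P2 and 45.0% in P3. Frame 0 exceeded the 33.3% of an even spread for 23 genes in P2 and 22 in P3. It exceeded 50% for 4 genes in P2 and 7 in P3, cox3, atp8 and rps4 in both. The 6 genes dense in both phenotypes had a median frame 0 share of 48.9% in P2 and 49.5% in P3, with rpl16 lowest at 23.9% and 23.1%. The 4 sparse genes had medians of 44.6% and 45.2%, and the remaining 14 had 47.0% and 43.7%. Over the 24 genes, the ratio and the frame 0 share had rho = 0.32 in P2 and 0.22 in P3, a weak relation.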

How the data were processed

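Footprints and total RNA came from mitochondria isolated from leaves. About 15 g of mutant leaves went into each isolation, and chloramphenicol at 100 µg/ml was present from thawing onward, per the labels' protocols. STAR and featureCounts are named, without versions, per the submitters' processing notes. Build, annotation and frame assignment were not given in the sources used here. The authors deposited TPM for 24 genes. Whole numbers of reads per class and, beside them, each class as a fraction were deposited in a summary sheet per library, and footprint frames were deposited as a fraction per gene.

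Footprint TPM was divided by RNA TPM of the same phenotype without a pseudocount, since no value was 0. Genes past 1.5-fold were counted, lists were summarised by medians and TPM sums, and reads by 95% Wilson intervals (Python 3.11.15, pandas 2.3.3, scipy 1.17.1). Simulated data with known answers were used to check the arithmetic. No test was run, as each group had 1 library. Depth was 48653 to 3126478 reads on CDS, and the spread between preparations is unknown. All 24 genes could be named, in full where among the 5 highest or lowest ratios or footprint levels. The members and lists were chosen with earlier results of these data known. Names of all 24 genes were found in the TAIR10.1 gene table, 3 under a synonym. Alternatives covered pseudocount, filter, centring, abundant or overlapping genes, frame 0 weighting and the fold. Where an alternative left genes out, its ratios and list shares were taken from TPM rescaled to the genes kept. Quotients of P3 and P2 footprint TPM were compared among genes for identical values after the data were seen. The 3 genes with an identical value and matR, within 0.5% of it, were left out as an alternative.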

Additional observations from a re-analysis of the deposited data

Results flagged for a closer look

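The maturase gene matR was the one gene whose footprint TPM over RNA TPM lay below 1 in P2 (0.71) and above 1 in P3 (1.23), a log2 difference of 0.79 between P3 and P2. Its P3 to P2 quotient of footprint TPM stands to the quotient shared by ccmB, ccmFN2 and tatC as 808 to 809. That is near the shared quotient but not identical to it. The gene was grouped with the other 3 only by the 0.5% tolerance, and the origin of the match was not tested. The difference was not tested, with 1 library of each kind per phenotype. Its RNA level was 0.91-fold and its footprint level 1.57-fold in P3 relative to P2, and frame 0 held 39.7% of its footprints in P2 and 35.0% in P3.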

How the results depend on the processing

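The 6 densely and 4 sparsely occupied genes shared by P2 and P3 were the same with 1 or 100 TPM added and with a minimum of 2000 TPM, which removed 0 genes. Against the median gene, which lay at -0.20 in P2 and -0.05 in P3, the same 6 and 4 were counted and ccmFN1 was added. At 2-fold, 3 genes were dense and 3 sparse in P2, and 6 were dense and 3 sparse in P3. Of the 6 genes dense in both, 3 were left, and those lost, rpl16, rps12 and rps4, are all ribosomal. With frame 0 weighting rpl16 turned to -0.18 in P2, the medians of cytochrome c maturation in P2 (-0.59) and of OXPHOS in P3 (-0.62) passed 1.5-fold, and ccmFN2 became sparse in both. The complex IV median rested on cox3, and without it only cox1 was left. Without the genes most abundant in each kind of library the value was -0.15 in P2 and -0.72 in P3. Without cox3 alone, an alternative chosen after seeing the data, it was 0.02 in P2 and -0.44 in P3. Sparse genes in P3 went from 6 to 4 without rpl16 and without cox3, with atp4 and cox1 lost, and to 9 with frame 0 weighting. Rescaling without cox3 raised the ratios of all the other genes by the same factor within a phenotype. The P2 medians of OXPHOS and of all genes kept were then both 0.03, and ccmFN1 and nad6 became dense in both. The ribosomal median stayed above 1.5-fold under every alternative run, rpl16 left out or weighted included. Without the 4 genes of matching footprint quotient, also an alternative chosen after seeing the data, 3 genes were sparse in P2 and 3 in both, the medians of cytochrome c maturation moved to 0.14 in P2 and 0.33 in P3, and the other 40 single values stayed on their side of 1.5-fold. Spearman's rho of the P2 and P3 rankings was 0.89 with frame 0 weighting and 0.87 without rpl16 and the atp6 copies. As a share of mitochondrial genome reads outside tRNA and rRNA, CDS held 17.3% and 14.9% of footprints and 47.1% and 46.2% of RNA in P2 and P3. Reads per gene are not listed, and 1 library per group gives no spread between preparations.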
